A study of Mus musculus with 54 samples.

Results

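The cytosolic ribosomal protein genes were examined across 54 libraries of macrophages sorted from mouse brain. Members were the rows of the deposited count tables whose symbol names a protein of the small (Rps) or the large (Rpl, Rplp) ribosomal subunit, without pseudogenes, and that reached 5 CPM (counts scaled to a common library total) in at least 3 libraries. Of 33280 gene symbols, 87 matched by name and 79 met the limit, 31 of the small and 48 of the large subunit. The 8 symbols left out were Rpl24, with 336 counts in all libraries together, and the rarely counted Rpl3l, Rpl6l, Rpl10l, Rpl32l, Rps3a2, Rps3a3 and Rps12l1, and of these only Rpl3l reached the limit in any library, in 1. The members that reached 5 CPM in the fewest libraries were the paralog Rpl39l, in 5, Rps10 in 28 and Rpl23a in 32. Reads of this family can be shared with its many processed pseudogenes, and how the authors treated such reads was not given in the sources used here, so the level of a single member is uncertain to that extent.

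From 24 mice, microglia (MG) and sdCAMs, which are the CNS-associated macrophages beneath the dura in leptomeninges and around vessels, were sorted from brain without choroid plexus, and bulk RNA-seq gave 18 groups of 3 libraries. WT mice and mice lacking the chemokine receptor gene Ccr2 (Ccr2-/-) were either untreated and injected with PBS, or given vehicle (CTL) or the CSF1 receptor inhibitor BLZ945, which depletes these macrophages, and then injected with lipopolysaccharide (LPS), a bacterial endotoxin. Ccr2CreERT2/CreERT2:R26tdT/tdT reporter mice received BLZ945 and then doses of 2 mg tamoxifen, before PBS or LPS. In them, cells that transcribed Ccr2 when tamoxifen was given, and their descendants, carry tdTomato, so sdCAMs were sorted as tdT+ or tdT-. Both Ccr2 alleles of these mice carry CreERT2, tdT- cells include any in which recombination did not occur, and no reporter group went without BLZ945 or tamoxifen. Cells were taken 8 weeks after treatment and 12 h after the injection. The LPS contrast in WT and Ccr2-/- mice therefore compares CTL-treated mice given LPS with untreated mice given PBS, so that vehicle and LPS cannot be told apart there, while in reporter mice both arms had received BLZ945.

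Ribosomal proteins are made in near-equal numbers, as nearly all ribosomes hold the same set, and cells adjust the supply of the whole set with growth, nutrient signalling and activation. Many of their mRNAs begin with a C followed by a run of pyrimidines, the terminal oligopyrimidine (TOP) motif, through which the kinase mTORC1 and the RNA-binding protein Larp1 control translation. A change in transcript level, which is what RNA-seq measures, can therefore differ from the change in protein output.

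The start sites of 6 members named in the results are shown because this motif is the feature the family is best known for. They were chosen to show 5 windows with such a run and 1 without. Each line gives the 30 bases of the sense strand around an annotated RefSeq start (GRCm38.p6, 15 bases before the start and 15 from it on), and capitals mark the longest run in that window of a C followed by at least 4 pyrimidines.
Rps9: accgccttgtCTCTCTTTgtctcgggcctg
Rpl14: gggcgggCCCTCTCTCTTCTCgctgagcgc
Rpl15: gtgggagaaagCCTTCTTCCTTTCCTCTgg
Rplp2: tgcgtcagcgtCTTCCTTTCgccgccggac
Rpl35a: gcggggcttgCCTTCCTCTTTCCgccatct
Rps15: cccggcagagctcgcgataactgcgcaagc
The Rps9 window lay at chr7:3704026-3704055 on the plus strand, that of Rpl14 at chr9:120571502-120571531 (plus), that of Rpl15 at chr14:18270972-18271001 (minus), that of Rplp2 at chr7:141447636-141447665 (plus), that of Rpl35a at chr16:33056467-33056496 (plus, 1 of 3 annotated starts) and that of Rps15 at chr10:80292416-80292445 (plus). RefSeq starts were matched for 59 of the 79 members. A run of a C and at least 4 pyrimidines on the sense strand was present in 42 of 70 member windows (60%) and in 36.4% of the windows at all 32851 RefSeq starts. Runs of at least 7 bases were in 47.1% of member windows and in 14.2% of all. Among members named below, those without such a run in any matched window included Rps15, Rps3, Rplp0, Rpl11, Rpl27, Rps4x, Rpl23 and Rpl7l1. Rps19, Rpl22, Rps27l and Rpl35a had windows both with and without a run. A match or its absence is a description of these letters only, since the base at which transcription began was not measured.

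Library totals ranged from 1705930 to 11330781 counts, with a median of 8543082, and a library detected 74 to 79 members at 5 CPM or more. Border macrophage markers (8 of 8 genes, among them Mrc1, Cd163 and Pf4) were higher in sdCAMs than in MG in all 4 comparisons without LPS. Microglial markers (7 measured) took 0.334 to 1.18% of counts in sdCAM libraries without LPS and 2.54 to 4.67% in MG. Ccr2 separated the genotypes in untreated sdCAMs, at 16.8 to 42.96 CPM in WT and 2.46 to 5.59 CPM in Ccr2-/- libraries, but not in untreated MG, at 3.87 to 10.6 and 5.10 to 7.10 CPM. This order was reversed in sdCAMs of mice given CTL and LPS, at 0 to 0.26 CPM in WT and 2.92 to 5.32 CPM in Ccr2-/- libraries. The labels mark 6 of the 9 WT sdCAM libraries with an IEG correction that they do not explain, and these, called marked libraries here, stood apart in the share of ribosomal protein counts. For 2 columns the sample description gave the index number of the other library, while the column name did not. These were tdT- sdCAMs of LPS mouse 1 and tdT+ sdCAMs of LPS mouse 7. As named, 2 of the 24 mice showed sex-linked transcripts that differed between their own libraries, against 0 once these columns were exchanged. The tests that use either column are given both ways, and other values of tdT+ and tdT- sdCAMs after LPS take the columns as named. In bulk libraries a change in the number of cells of a type and a change in RNA per cell cannot be told apart.

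All members together took 0.218% of counts in the library with the smallest share (WT MG of untreated mouse 15, 95% Wilson interval 0.215 to 0.221%) and 4.57% in the one with the largest (WT sdCAMs of untreated mouse 9, 4.55 to 4.60%). These intervals cover counting error only and were narrow beside the spread between mice. Rpl4, a protein that lines the exit tunnel of the large subunit, took the most counts, on average 5.28% of all member counts. Rps9 followed with 4.00%, Rps3, at the entry of the mRNA channel, with 3.79%, Rps14 with 2.74% and Rps29 with 2.60%. The first 5 members thus held 18.4% of the family's counts, and no single gene carried the share. At the other end, Rpl39l, a paralog of Rpl39, had no count in 12 libraries and a mean of 2.95 CPM, so no fold change is given for it.

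In MG the share was larger after LPS in each genotype. In WT MG it was 0.269, 0.250 and 0.218% in untreated mice 9, 14 and 15, against 0.614, 0.339 and 0.497% after CTL and LPS in mice 1, 4 and 6. In Ccr2-/- MG it was 0.413, 0.380 and 0.407% in mice 1m, 3m and 5f without LPS and 0.874, 0.703 and 0.812% in V1m, V2m and V4f after LPS. In MG of reporter mice the values were 0.437, 0.565 and 0.375% after PBS and 1.36, 0.793 and 0.629% after LPS. No group of 3 overlapped its comparison group. The mean difference was 0.238 percentage points in WT, 0.397 in Ccr2-/- and 0.468 in reporter MG, each with an exact two-sided permutation p = 0.1, the smallest that 3 against 3 allow (0.189 after Benjamini-Hochberg adjustment over 17 such comparisons). With LPS labels permuted within the 3 mouse lines, the mean difference over 9 against 9 libraries was 0.368 percentage points (exact permutation p = 0.00025, the smallest possible, adjusted 0.00125 over 5 pooled tests). Levels also differed between lines, since Ccr2-/- MG without LPS lay above WT MG without LPS, a difference that was not tested.

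**Figure D1:**
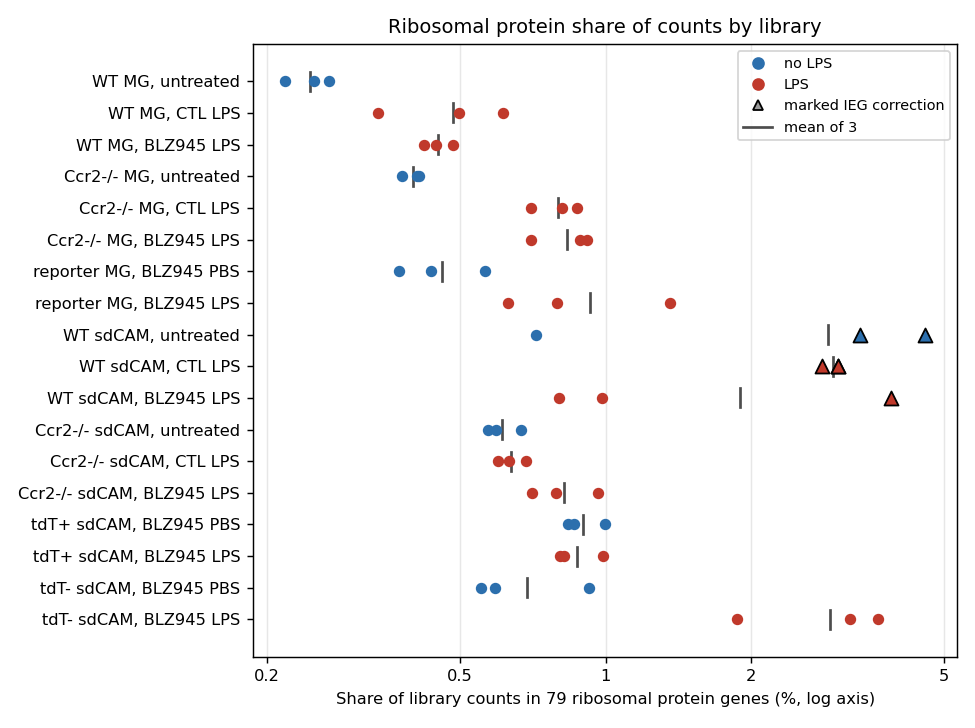
Share of all counts taken by the 79 ribosomal protein genes (percent, log axis) in each of the 54 libraries, by group of 3, with marked libraries as triangles, LPS in red, and a line at each mean. MG lie between 0.218 and 1.36%. With columns as named, the 6 marked WT sdCAM libraries (2.80 to 4.57%) and the 3 tdT- sdCAM libraries after LPS (1.86 to 3.65%) lie above the others. With the 2 doubtful columns exchanged, the library at 3.65% would be tdT+ and the one at 0.823% tdT-.

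Per gene, LPS was followed by a rise of most members in WT and Ccr2-/- MG. Each was tested with edgeR's quasi-likelihood test over all genes, with trimmed-mean (TMM) scaling, and a member passed at a Benjamini-Hochberg adjusted p under 0.05. In WT MG 62 of 78 members tested passed as higher, where 16.7% of all 11789 genes did, and 0 passed as lower, where 14.2% of all genes did. In Ccr2-/- MG 68 of 79 were higher and 0 lower, against 19.4 and 15.5% of all genes. The median log2 fold change of the members was 0.96 in either genotype, and that of all genes tested was 0.02 in WT and 0.00 in Ccr2-/- MG. Both subunits took part, with 25 of 31 small and 37 of 47 large subunit members higher in WT, and 27 of 31 and 41 of 48 in Ccr2-/- MG. In WT MG the number was 44 without untreated mouse 15 and lay between 48 and 68 without any of the other 5 libraries.

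Rpl35a, a large subunit protein that is mutated in some patients with Diamond-Blackfan anaemia, was among the members with the smallest p in WT MG. There it lay at 18.3, 13.5 and 12.1 CPM in mice 9, 14 and 15, and at 65.3, 34.0 and 53.6 CPM after LPS in mice 1, 4 and 6. In Ccr2-/- MG it lay at 28.2, 19.9 and 24.3 CPM without LPS and at 82.1, 65.4 and 87 CPM after it. The groups did not overlap in either genotype, and the log2 fold changes were 1.71 (SE 0.25, adjusted p = 0.000439 in edgeR) and 1.63 (SE 0.20, adjusted p = 2.27e-05 in edgeR). Rpl4 went from 269, 271 and 282 CPM to 653, 490 and 617 CPM in Ccr2-/- MG, again without overlap, and from 194, 173 and 170 CPM to 498, 252 and 400 CPM in WT MG (log2 change 1.01, SE 0.22, adjusted p = 0.00478 in edgeR).

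The rise was not of one size across members. Rps27 of the small subunit lay at 38.9, 35.8 and 25.5 CPM in untreated WT MG and at 44.4, 32.4 and 39.3 CPM after LPS, ranges that overlap, and did not pass in WT (log2 change 0.12, SE 0.20, adjusted p = 0.686 in edgeR) or in Ccr2-/- MG (-0.25, SE 0.21, adjusted p = 0.384 in edgeR). Rpl7l1, a paralog of Rpl7 thought to act in ribosome assembly, had log2 fold changes of 0.05 (SE 0.18) and 0.15 (SE 0.14). Rps29 passed in WT MG (0.74, SE 0.26, adjusted p = 0.0474 in edgeR) and not in Ccr2-/- MG (0.40, SE 0.17, adjusted p = 0.0765 in edgeR), a difference between genotypes that was not tested. WT and Ccr2-/- MG shared no library, and 60 members passed as higher in both, which is 96.8% of the 62 of WT and 88.2% of the 68 of Ccr2-/- MG. Of all genes tested in both, 2789 passed both in the same direction, 77.6% of those passing in WT and 69.6% in Ccr2-/- MG. Since most members passed in each genotype, a large overlap of members was bound to occur. Across the 78 members tested in both, the fold changes correlated with Pearson's r = 0.792 and Spearman's rho = 0.751, as a description across genes that share each library. Across all 11260 genes tested in both, r was 0.87.

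**Figure D2:**
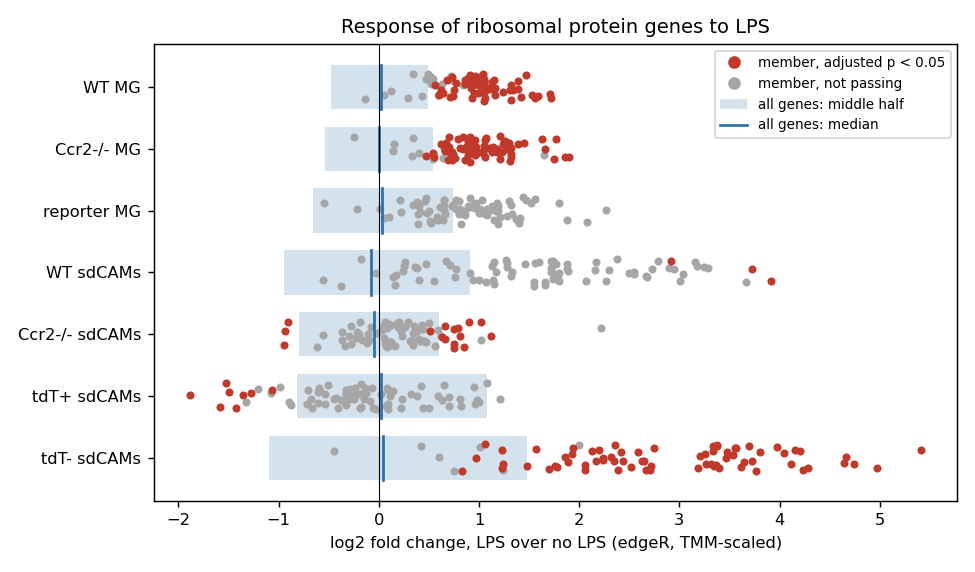
Log2 fold change after LPS (TMM-scaled, edgeR) of each ribosomal protein gene in each population, without Rpl39l, with members at an adjusted p under 0.05 in red, others in grey, and the middle range and median of all genes tested in blue. In WT and Ccr2-/- MG the member medians are 0.96, in Ccr2-/- sdCAMs the median is 0.19, and in tdT- sdCAMs, with columns as named, it is 2.64.

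In the same MG libraries the 7 microglial markers took a smaller share of counts after LPS, 3.33 to 3.44% before and 0.701 to 1.29% after in WT, and 4.52 to 4.67% and 1.24 to 1.43% in Ccr2-/- mice, and the part of this in the member changes was not tested.

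The 3 proteins of the acidic stalk, which recruits translation factors to the large subunit, rose in MG of both genotypes. Rplp0, the base of the stalk, lay at 29.5, 30.6 and 24.9 CPM in untreated WT MG and at 83.4, 44.7 and 60.2 CPM after LPS (log2 change 1.06, SE 0.21, adjusted p = 0.00336 in edgeR). In Ccr2-/- MG it went from 44.95, 37.5 and 48.9 to 133, 96.0 and 114 CPM (1.32, SE 0.18, adjusted p = 7.55e-05 in edgeR). Its partners Rplp1 and Rplp2 had smaller log2 fold changes of 0.77 and 0.60 in WT and 0.67 and 0.93 in Ccr2-/- MG, and all 4 passed.

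Genes that act around the ribosome were compared by lists. Of 24 ribosome biogenesis factors, which process and assemble ribosomal RNA in the nucleolus, 23 rose after LPS in WT MG and 23 in Ccr2-/- MG, with medians of 1.49 and 1.57. Nop56, of the snoRNA-guided methylation complex, had a log2 fold change of 2.02 in Ccr2-/- MG (SE 0.19, adjusted p = 3.01e-06 in edgeR). Of 18 translation factors and other transcripts known to carry a TOP motif, 13 rose in WT and 16 in Ccr2-/- MG, with medians of 0.80 and 1.01. Of 16 measured regulators of ribosomal protein synthesis, 5 were higher and 1 lower in WT, and 6 higher and 2 lower in Ccr2-/- MG, so this list had no common direction. Among them Myc, a transcription factor that drives ribosome production, had log2 fold changes of 1.77 (SE 0.20) and 1.70 (SE 0.15), and Ddit4, an inhibitor of mTORC1, of 5.75 (SE 0.41) and 4.84 (SE 0.37). Respiratory chain subunits, a family of similarly short and abundant transcripts, were higher in 11 of 76 cases in WT (median 0.32), where 16.7% of all genes were, and in 28 of 75 in Ccr2-/- MG, with 1 lower (median 0.42), where 19.4% of all genes were higher. Their difference from the ribosomal proteins was not tested.

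In MG of reporter mice the member median after LPS was 0.85 and 76 of 78 members had a positive fold change, but 0 passed in edgeR, where 0.662% of all genes were higher and 0.423% lower. At an unadjusted p under 0.05 there were 17 members, for which the share of all genes at that threshold is not given here. DESeq2 passed 6, where it passed 7.86% of all genes. Without LPS mouse 1 the member median was 0.42 and the difference in share 0.252 percentage points, in place of 0.468. The 17 were 7 without PBS mouse 174, 8 without PBS mouse 177, 9 without LPS mouse 1 or 5, and 40 without PBS mouse 175. Rpl12, at the base of the stalk, lay at 31.5, 9.25 and 18.4 CPM in PBS mice 174, 175 and 177 and at 167, 91.6 and 60.6 CPM in LPS mice 1, 5 and 7 (log2 change 2.26, SE 0.63, adjusted p = 0.133 in edgeR). Mouse 1 had the highest value among the LPS mice for Rpl12 as for the family's share, and the groups did not overlap. The median annotated transcript length over its MG counts was 1443 bases, against 1905 and 2024.5 in mice 5 and 7. PBS mouse 175, with the lowest Rpl12 level, had 10815 genes detected in MG, the fewest of all libraries. The part of either in these values was not tested.

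In sdCAMs of Ccr2-/- mice most members did not pass after LPS. The share was 0.571, 0.668 and 0.593% without LPS and 0.685, 0.632 and 0.5996% after it, so that the groups overlapped (difference 0.0285 percentage points, exact permutation p = 0.5, adjusted 0.607). Of 79 members 13 rose and 3 fell, against 15.8% of all genes higher and 13.1% lower, so that members were higher at a share near that of genes in general, and this comparison of shares was not tested, and the member median was 0.19 beside -0.05 for all genes. With library totals alone, a scaling added after the data were seen, 9 were higher and 4 lower. Rps9 rose most clearly, from 216, 245 and 217 CPM to 472, 439 and 421 CPM (log2 change 1.12, SE 0.15, adjusted p = 0.000138 in edgeR). Rplp0 rose from 53.9, 72.8 and 56.1 CPM to 99.4, 102 and 106 CPM (0.90, SE 0.18, adjusted p = 0.00237 in edgeR). The others that rose included Rpl5, Rpl6, Rpl7a, Rpl7l1, Rpl10, Rpl18, Rpl19, Rpl27 and Rps13.

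Rps29 and Rpl22 were among the members that fell in Ccr2-/- sdCAMs. Rps29, a small zinc-binding protein of the small subunit, lay at 181, 194 and 172 CPM in mice 1m, 3m and 5f and at 95.5, 90.3 and 70.7 CPM in V1m, V2m and V4f (log2 change -0.94, SE 0.19, adjusted p = 0.00226 in edgeR). In MG of the same mice it lay at 91.0, 69.6 and 85.1 CPM and at 124, 108 and 108 CPM. Without LPS its level was therefore higher in sdCAMs than in MG, and after LPS it was lower. Rpl22, an RNA-binding protein of the large subunit, had a log2 fold change of -0.93 (SE 0.26, adjusted p = 0.0182 in edgeR). Of 24 ribosome biogenesis factors 19 rose in Ccr2-/- sdCAMs, with a median of 1.38, as did 7 of 18 translation factors and TOP transcripts, with a median of 0.48. In these sdCAMs the border macrophage markers (8 genes) took 2.12 to 2.23% of counts without LPS and 0.729 to 0.794% after it. Monocyte markers (6 genes) took 0.0003 to 0.0006% and 0.0100 to 0.0186%, and neutrophil markers (8 genes) 0.0001 to 0.0003% and 0.0076 to 0.0120%. Of these 8 genes, S100a8 had the highest median level over all sdCAM libraries. Ly6g had no count in any of the 54 libraries and Retnlg none in 52. Whether these counts came from monocytes or neutrophils, and their part in the changes, was not tested.

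Whether the LPS response differed between cell types of Ccr2-/- mice was tested as an interaction in the fit of all 18 Ccr2-/- libraries. A total of 17 members passed, each with a smaller response in sdCAMs than in MG, and 0 passed with a larger one, where 4.64 and 3.5% of all genes did. The member median of the difference was -0.78, beside -0.07 for all genes, and the response in MG was the larger one for 76 of 79 members. The members with the smallest p were Rps29, at -1.31 (SE 0.25, adjusted p = 0.00193 in edgeR), and Rpl14, at -1.19 (SE 0.24, adjusted p = 0.0033 in edgeR). Rpl14, a large subunit protein, lay at 126, 133 and 123 CPM in sdCAMs without LPS and at 125, 128 and 111 CPM after it. In MG it went from 75.1, 61.96 and 70.3 to 203, 158 and 176 CPM. Rps19, which is needed for maturation of the small subunit RNA and is mutated in Diamond-Blackfan anaemia, was at -1.13 (SE 0.23, adjusted p = 0.00441 in edgeR).

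The count of 17 depended on how mice and libraries entered the fit. Both cell types came from the same mice, and 8 members passed with the mouse as a replicate block. With library totals alone 47 passed, all with the smaller response in sdCAMs, and the median was -1.03. For the 8 and the 47 the share of all genes passing is not given here. Leaving out 1 library gave 9 to 23, with 9 without V1m MG or V4f sdCAMs, 10 without 3m sdCAMs or 5f MG, and 11 without 3m MG. The median was negative in each of these fits, while the number of members past the threshold varied.

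**Figure D3:**
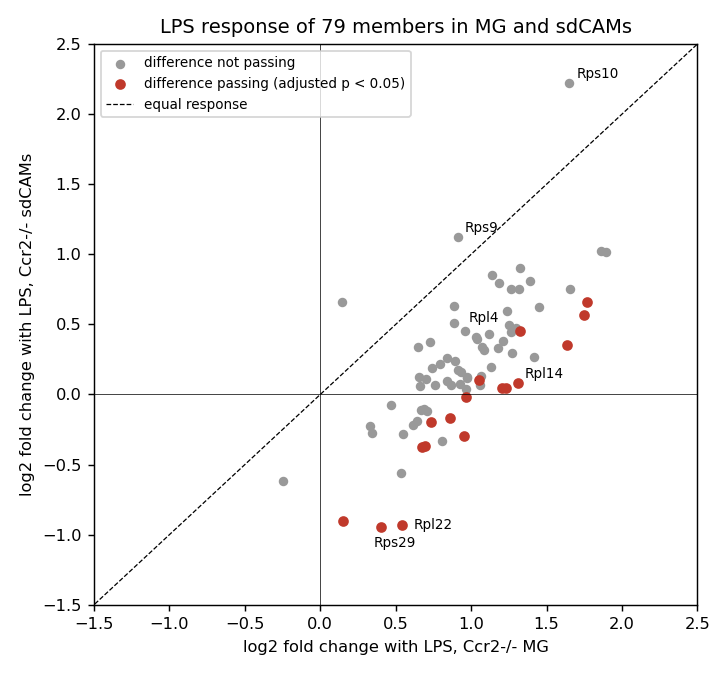
Log2 fold change after LPS (TMM-scaled, edgeR) of the 79 members in Ccr2-/- MG (horizontal) and in Ccr2-/- sdCAMs (vertical), with a dashed line of equal response and red points for members that passed the test of the difference. For 76 of 79 members the point lies on the side of the larger response in MG, and Rps29 and Rpl22 lie below 0 in sdCAMs.

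Without LPS the share was larger in sdCAMs than in MG of the same mouse in 9 of 9 mice, taking the mean of tdT+ and tdT- in reporter mice. The mean difference was 1.06 percentage points (exact permutation of cell type within mice, p = 0.00391, the smallest possible, adjusted 0.00956), and 0.655 without WT mouse 9. Without the WT mice, whose sdCAM libraries include marked ones (described further on), an alternative added after the data were seen, it was 0.272 percentage points in 6 mice (exact permutation p = 0.0313, the smallest possible). After LPS the difference was 0.938 percentage points with sdCAMs higher in 10 of 15 mice (exact permutation p = 0.00574, adjusted 0.00956). With the 2 doubtful columns exchanged sdCAMs were higher in 9 of 15 mice (exact permutation p = 0.0214). Without the WT sdCAM and tdT- libraries, with columns as named, the difference was -0.0753 (exact permutation p = 0.301). This alternative was added after the data were seen and takes out the libraries with the largest shares, so a smaller difference was built into it. In the libraries that remained, a larger share of sdCAMs after LPS was not detected.

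In Ccr2-/- mice, whose libraries carry no mark, 50 of 79 members were higher in sdCAMs than in MG and 0 lower, against 12.5 and 9.9% of all genes, with a member median of 0.68 beside 0.00 for all genes. Without 3m MG 28 were higher and 1 lower, without 3m sdCAMs 30 passed, and without another library up to 49 did. Rps19 lay at 88.5, 108 and 90.0 CPM in sdCAMs of mice 1m, 3m and 5f and at 44.3, 46.9 and 50.5 CPM in their MG (log2 change 1.04, SE 0.17, adjusted p = 0.000117 in edgeR), and Rps29 had a log2 fold change of 1.18 (SE 0.18, adjusted p = 5.36e-05 in edgeR). Rpl4 did not pass, at 256, 322 and 283 CPM in sdCAMs and 269, 271 and 282 CPM in MG (0.09, SE 0.15, adjusted p = 0.742 in edgeR). Small subunit members passed in 25 of 31 cases and large subunit members in 25 of 48. Respiratory chain subunits were higher in 36 of 77 cases with a median of 0.60, whereas biogenesis factors were higher in 2 and lower in 3 of 24.

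In reporter mice given PBS, tdT+ sdCAMs had shares of 0.997, 0.860 and 0.837% and tdT- sdCAMs 0.924, 0.590 and 0.553%, against 0.375 to 0.565% in MG. Against MG, 13 of 79 members were higher in tdT+ sdCAMs and 0 lower, where 5.35 and 3.18% of all genes passed, with a median of 1.04. The lowest adjusted p belonged to Rpl32, at 350, 358 and 313 CPM in tdT+ sdCAMs and 117, 118 and 84.9 CPM in MG (log2 change 1.71, SE 0.41, adjusted p = 0.0122 in edgeR), followed by Rpl12 (1.87, SE 0.46, adjusted p = 0.0148 in edgeR). Single libraries decided this count, which was 1 without tdT+ mouse 174 or MG mouse 177, 2 without tdT+ mouse 177, and 3 without tdT+ mouse 175 or MG mouse 174. It was also 1 with the 2 doubtful columns exchanged, which enter the shared fit but not the comparison, and DESeq2 passed 22. In tdT- sdCAMs against MG 0 members passed in edgeR, where 4.61 and 1.77% of all genes were higher and lower, and the member median was 0.61. There were 14 members at an unadjusted p under 0.05, and 2 passed in DESeq2. These comparisons share their MG libraries. Between tdT+ and tdT- sdCAMs after PBS 0 members passed in edgeR, where 0 and 0.0236% of all genes were higher and lower, and 0 in DESeq2. There were 5 members at an unadjusted p under 0.05, and 77 of 79 had a positive fold change (median 0.42). The share of all genes at the unadjusted threshold is not given here for the 14 or the 5.

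The WT sdCAM libraries fell apart by the IEG mark. Marked libraries had shares of 4.57 and 3.35% in untreated mice 9 and 14, of 2.80, 3.02 and 3.02% after CTL and LPS in mice 1, 4 and 6, and of 3.89% after BLZ945 and LPS in mouse 12. The unmarked libraries had 0.720% in untreated mouse 15, and 0.983 and 0.803% after BLZ945 and LPS in mice 8 and 11. The sets did not overlap, and within conditions the marked libraries were higher by 3.12 percentage points (exact permutation p = 0.111, the smallest that the 9 arrangements allow). With condition in the fit, 62 of 79 members were higher in marked libraries and 0 lower, where 7.68 and 0.286% of all genes were, with a member median of 3.42 beside -0.04 for all genes. Without BLZ945 mouse 12 the number was 30, and without any other library 53 to 65.

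Rps15, a protein of the head of the small subunit, lay at 983 and 757 CPM in marked untreated mice 9 and 14 and at 72.1 CPM in unmarked mouse 15. After BLZ945 and LPS it lay at 993 CPM in marked mouse 12 and at 112 and 96.7 CPM in mice 8 and 11 (log2 change 4.58, SE 0.51, adjusted p = 0.000219 in edgeR). Rpl4 behaved otherwise, with 666 and 617 CPM against 432 CPM in untreated mice, but 189 CPM in mouse 12 against 525 and 460 CPM (0.74, SE 0.43, adjusted p = 0.379 in edgeR). Other members that did not pass included Rpl3, Rpl5, Rpl7 and Rps6, so that members differed in how far they followed the mark. Of respiratory chain subunits 57 of 78 were higher (median 4.48), a difference from the members that was not tested, and they took 2.48 to 4.77% of counts in marked libraries against 0.400 to 0.811% in the unmarked ones. Mitochondrial ribosomal proteins were higher in 32 of 78 cases (median 1.84), whereas biogenesis factors passed in 2 of 24 (median 0.28) and translation factors and TOP transcripts in 2 of 18 (median 0.80).

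The 50 most abundant genes took 55.3 to 63.5% of counts in the marked libraries after LPS and 24.6 and 26.2% in the untreated ones, against 20.1 to 23.7% in unmarked libraries. In untreated mice neutrophil markers took 0.0080 and 0.0034% in the marked libraries of mice 9 and 14 and 0.0002% in unmarked mouse 15, and after BLZ945 and LPS 0.0374% in marked mouse 12 and 0.0074 and 0.0080% in the unmarked ones. Microglial markers took 0.381 and 0.616% in the marked and 1.18% in the unmarked untreated library, and 0.0481% in marked mouse 12 against 0.257 and 0.272% in unmarked mice 11 and 8. Within both conditions the marked libraries thus had more of the former and less of the latter, and the part of either in the member levels was not tested. Whether the counts of neutrophil markers came from neutrophils was not tested either.

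Transcript length moved with these differences. Of the 79 members, 65 have a median annotated transcript length under 1000 bases (GENCODE M21). In marked against unmarked libraries the median log2 fold change was 4.2 for the 14 members under 500 bases, 3.42 for the 51 members from 500 to below 1000 bases and 2.06 for the 12 members from 1000 to below 2000 bases. The 2 members from 2000 to below 4000 bases had a median of 3.43, above that of the class before. Genes that were neither members, mitochondrial ribosomal proteins nor respiratory chain subunits had medians that fell from class to class, at 1.28 under 500 bases and 0.52, 0.10, -0.26 and -0.39 in the classes above. In each class that held members, their median was above that of the other genes. After LPS in Ccr2-/- MG there was no such order, with member medians of 0.79, 0.97 and 1.18 in the first 3 classes and medians of the other genes between -0.11 and 0.07. For cell type in untreated Ccr2-/- mice member medians fell, at 0.81, 0.65 and 0.40 in these classes. The 2 longer members had 0.86, and other genes fell from 0.14 to -0.10. After LPS in tdT- sdCAMs, with columns as named, member medians were 3.67, 2.58 and 2.16, and 3.04 for those 2. Other genes there had 1.56, 0.45, -0.175, -0.23 and 0.33 from the shortest to the longest class. Whether length, the mark or the condition of the RNA set the member levels was not tested.

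**Figure D4:**
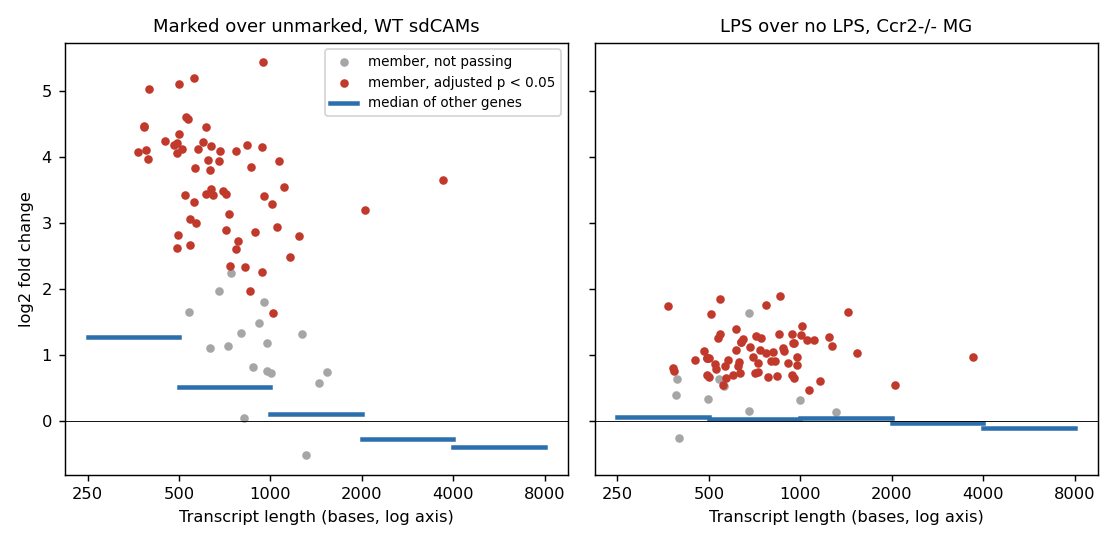
Log2 fold change (TMM-scaled, edgeR) of each member, without Rpl39l, against its median annotated transcript length (bases, log axis), for marked over unmarked WT sdCAM libraries (left) and LPS over no LPS in Ccr2-/- MG (right), with red points for an adjusted p under 0.05 and blue lines for the medians of other genes by length class. On the left, members under 500 bases have a median of 4.2 and the blue lines fall from 1.28 to -0.39, and on the right member medians lie between 0.76 and 1.18 in all classes.

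Comparisons that use WT sdCAMs carry the mark within them. Untreated WT sdCAMs against MG gave 67 of 79 members higher and 0 lower, where 12 and 5.46% of all genes were, with a median of 3.66. Rps12 of the small subunit had the smallest p (log2 change 5.64, SE 0.80, adjusted p = 0.000159 in edgeR), followed by the X-linked Rps4x, at 181, 113 and 109 CPM in sdCAMs of mice 9, 14 and 15 and 38.5, 32.6 and 28.7 CPM in MG (2.43, SE 0.37, adjusted p = 0.000302 in edgeR). In unmarked mouse 15 Rps4x was thus close to its level in marked mouse 14. With the marked libraries left out, the member median was 1.44, which leaves mouse 15 as the only untreated sdCAM library and assumes that it varies like the others. With the mark as a covariate 37 members passed with a median of 1.24, and the share of all genes passing is not given here. Both settings were added after the data were seen. Without sdCAM mouse 9 the number was 44, without MG mouse 14 it was 43 and without MG mouse 15 it was 40.

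For LPS in WT sdCAMs the difference in share was 0.0651 percentage points (exact permutation p = 1), where all 3 LPS libraries and 2 of 3 untreated ones are marked. It was -1.02 without unmarked untreated mouse 15 (exact permutation p = 0.1), 0.911 without mouse 9 (exact permutation p = 0.6) and 0.3002 without mouse 14 (exact permutation p = 0.8). The marked untreated shares lay above all 3 shares after LPS. By edgeR 3 of 79 members were higher, Rpl22l1, Rpl15 and Rps6, and 0 lower, against 3.7 and 2.62% of all genes, with a median of 1.66 beside -0.08 for all genes. Rpl22l1, a paralog of Rpl22, lay at 5.58, 6.01 and 9.85 CPM in mice 9, 14 and 15 and at 25.5, 41.1 and 49.9 CPM after LPS (log2 change 3.92, SE 0.86, adjusted p = 0.025 in edgeR). Rpl15 lay at 21.3, 27.7 and 40.95 CPM and at 65.9, 186 and 171 CPM (3.73, SE 0.83, adjusted p = 0.0269 in edgeR). For both, unmarked mouse 15 was the highest untreated library and still below each LPS library. The count was 0 when LPS mouse 4 or 6 or untreated mouse 9, 14 or 15 was left out, 9 by DESeq2, 13 with the mark as a covariate and 23 in marked libraries alone. DESeq2 passed 15.8% of all genes there, so its 9 members are not above the share of genes in general. Scaling bore on the size of these values, because the median of all genes was -1.55 with library totals alone, where the member median was 0.32.

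A difference in LPS response between sdCAMs and MG was not detected in WT mice. In edgeR 0 members passed, where 0.434% of all genes had a larger and 0.891% a smaller response in sdCAMs. At an unadjusted p under 0.05 there were 5 members, for which the share of all genes at that threshold is not given here. DESeq2 passed 2, where it passed 6.62% of all genes. The member median was 0.53 with TMM scaling and -0.82 with library totals alone, so its direction depended on the scaling, and with the mark as a covariate, also added after the data were seen, it was -0.20. Rpl4 had a value of -1.28 (SE 0.50, adjusted p = 0.188 in edgeR), with 194, 173 and 170 CPM in untreated MG, 498, 252 and 400 CPM in MG after LPS, 666, 617 and 432 CPM in untreated sdCAMs and 174, 166 and 239 CPM in sdCAMs after LPS.

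The reporter sdCAMs after LPS differed sharply by tdTomato when columns were taken as named. In tdT+ sdCAMs the share was 0.989, 0.807 and 0.823% in LPS mice 1, 5 and 7, close to the PBS values (difference -0.0253 percentage points, exact permutation p = 0.5, adjusted 0.607). In tdT- sdCAMs it was 3.65, 1.86 and 3.19%, above every PBS value (2.21 percentage points, exact permutation p = 0.1, adjusted 0.189). Per gene, 0 members were higher and 8 lower after LPS in tdT+ sdCAMs, against 7.63 and 6% of all genes, while 71 were higher and 0 lower in tdT- sdCAMs, against 14.7 and 12.4%. The member medians were -0.19 and 2.64. Between tdT+ and tdT- sdCAMs after LPS 63 members were lower in tdT+ and 0 higher, where 6.92 and 3.85% of all genes were, with a median of -2.55. These 3 comparisons share libraries.

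Rps14, a small subunit protein, lay at 374, 317 and 306 CPM in tdT+ sdCAMs after PBS and at 88.3, 134 and 102 CPM in LPS mice 1, 5 and 7 (log2 change -1.88, SE 0.31, adjusted p = 0.00125 in edgeR). In tdT- sdCAMs it went from 347, 196 and 200 to 903, 659 and 706 CPM. The groups did not overlap in either population, and they moved in opposite directions. Rpl27 of the large subunit was higher after LPS in tdT- sdCAMs, at 44.4, 30.1 and 29.6 CPM after PBS and 337, 218 and 280 CPM after LPS (3.81, SE 0.32, adjusted p = 2.53e-06 in edgeR), and in tdT+ sdCAMs it lay at 53.5, 54.7 and 39.8 CPM and at 37.9, 57.1 and 45.7 CPM without passing (-0.33, SE 0.29, adjusted p = 0.505 in edgeR). The other members that fell in tdT+ sdCAMs included Rpl13, Rpl32, Rps16, Rps19, Rps23 and Rps27l. Rps27l, a paralog of Rps27 that p53 induces, was at -1.42 (SE 0.38, adjusted p = 0.022 in edgeR).

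With the 2 doubtful columns exchanged these results changed. LPS in tdT+ sdCAMs then gave 1 member, which was higher, and 21 members were higher in tdT- sdCAMs. The share of all genes passing in these refits is not given here, so the 21 cannot be set against genes in general. Between tdT+ and tdT- sdCAMs after LPS 0 members passed in edgeR, also with the mouse as a block. The shares then differed by 0.917 percentage points for LPS in tdT+ sdCAMs (exact permutation p = 0.7), by 1.27 in tdT- sdCAMs (exact permutation p = 0.2) and by -0.146 between tdT+ and tdT- (exact permutation p = 0.9). Rps14 had a log2 fold change of 0.71 in tdT+ sdCAMs, which did not pass. The direction for tdT+ sdCAMs and the difference by tdTomato thus rest on the assignment of these columns. As named, the 8 members lower in tdT+ sdCAMs were 2 without LPS mouse 7, 4 without LPS mouse 1, PBS mouse 174 or PBS mouse 177, and 5 without PBS mouse 175. With library totals alone, 3 members were higher and 4 lower.

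Other values moved with the high share of tdT- sdCAMs after LPS, given here with columns as named. Respiratory chain subunits were higher in 55 and lower in 1 of 79 cases there (median 2.90) and took 2.10 to 4.98% of counts, against 0.680 to 0.932% after PBS. The 50 most abundant genes of each library took 41.4 to 57.3% of counts, against 28.05 to 28.9% after PBS. The 7 microglial markers took 0.0178 to 0.0358% of counts in tdT- sdCAMs after LPS and 0.0572, 1.04 and 0.0760% in tdT+ sdCAMs of mice 1, 5 and 7, so that tdT+ mouse 5 was close to MG, while border macrophage markers took 0.177% in it and 0.794 and 0.920% in mice 1 and 7. Without tdT+ mouse 5, 7 members were lower in tdT+ sdCAMs and 1 higher. Neutrophil markers took 0.0281 to 0.150% of counts in tdT- sdCAMs after LPS against at most 0.0005% after PBS, and their part was not tested. Over all 54 libraries the 8 markers reached at most 1422 CPM, for S100a8, while Ly6g had no count in any library and Retnlg none in 52. As named, 59 of the 71 members higher after LPS in tdT- sdCAMs were also higher in marked WT sdCAM libraries. This is 83.1% of the former and 95.2% of the 62 of the latter, and the comparisons share no library. Since most of the 79 members passed in each comparison, a large overlap of members was bound to occur. Of all genes tested in both, 3249 passed for LPS in tdT- sdCAMs and 836 for the mark, and 560 passed both in the same direction.

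Pooled over all sdCAM populations, the share after LPS was 0.570 percentage points higher than without (exact permutation within groups p = 0.138, and 0.176 with the 2 columns exchanged). It was 0.782 (exact permutation p = 0.0268) without WT sdCAM untreated mouse 9, the library with the largest share, and 0.3003 (exact permutation p = 0.336) without untreated mouse 15. Without all WT and tdT- sdCAM libraries, an alternative added after the data were seen, it was 0.0016 (exact permutation p = 0.965).

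Prior BLZ945 treatment was compared with CTL among mice given LPS. The share was 0.423, 0.483 and 0.447% in WT MG of mice 8, 11 and 12, within the range of the CTL libraries (difference -0.0325 percentage points, exact permutation p = 0.7). In Ccr2-/- MG it was 0.914, 0.886 and 0.700% (0.0367, exact permutation p = 0.6). In Ccr2-/- sdCAMs it was 0.789, 0.705 and 0.966%, above each CTL library (0.181, exact permutation p = 0.1, adjusted 0.189), with a difference of 0.108 without B4f. In WT sdCAMs it was lower by 1.06 percentage points on average (exact permutation p = 0.4), where all CTL but only 1 of 3 BLZ945 libraries is marked, and by 2.05 without that library.

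Per gene 0 members passed in edgeR or in DESeq2 in any of the 4 BLZ945 comparisons. At an unadjusted p under 0.05 there were 0 in WT MG, 2 in WT sdCAMs, 0 in Ccr2-/- MG and 27 in Ccr2-/- sdCAMs. The share of all genes at this unadjusted threshold is not given here, so the 27 cannot be set against genes in general. The 27 were 6 without B4f, 9 without V2m or V4f, 17 without B2m and 48 without B3m. At the adjusted threshold, 0.0594% of all genes were higher and 0.017% lower in WT MG, 0 and 0% in WT sdCAMs, 0.00865 and 0.00865% in Ccr2-/- MG, and 0 and 0% in Ccr2-/- sdCAMs. The member medians were -0.06, -0.94, 0.14 and 0.43 in this order. Rps29 in Ccr2-/- sdCAMs lay at 120, 99.0 and 138 CPM after BLZ945 and LPS, between the levels of CTL mice after LPS and of untreated mice (0.49, SE 0.19, adjusted p = 0.524 in edgeR). In WT sdCAMs 55 members were lower once marked BLZ945 mouse 12 was left out, where 6.97% of all genes passed, so that this count was decided by 1 library. Without mouse 12 every CTL library and no BLZ945 library is marked, so BLZ945 and the mark cannot be told apart there.

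Members kept their place within the family to different degrees. The log2 share of a member among all member counts varied least over the 54 libraries for Rpl11, which with Rpl5 binds Mdm2 when ribosome assembly is disturbed, and for Rpl23 and Rpl21, and varied most for Rpl39l, Rps10 and Rpl7l1. Rps10 reached 5 CPM in 28 of the 54 libraries and has 1 library at 0. Rpl4 was also variable, at 166 to 666 CPM while the family's share varied over a far wider range. Among the 4 paralogs, Rps27l followed the mark (log2 change 5.11, SE 0.68, adjusted p = 0.000357 in edgeR) and Rpl7l1 did not (-0.51, SE 0.47, adjusted p = 0.612 in edgeR). After LPS in Ccr2-/- sdCAMs Rpl7l1 rose (0.66, SE 0.14, adjusted p = 0.00407 in edgeR), while in MG of either genotype it did not pass.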

How the data were processed

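The authors deposited raw counts by gene symbol, in 3 tables of 18 columns, made from single reads of SMARTer and Nextera XT libraries with STAR 2.7.11a and featureCounts 2.0.8, with no normalization. No molecular identifiers were used, and strand setting, treatment of reads with several matches and an unambiguous genome build were not given in the sources used here. All columns were matched to a library, leaving 0 unmatched, by population, mouse and library number. Ccr2-/- titles after LPS named the other cell type, and the cell type characteristic was used. No mitochondrially encoded symbol was listed, so shares are of nuclear counts. Replicates were separate mice.

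Counts were fitted with edgeR 4.0.16 in R 4.3.3 (filterByExpr, TMM scaling, quasi-likelihood test, two-sided, Benjamini-Hochberg adjustment over all genes tested) over the 9 libraries of a cell type in WT or in Ccr2-/- mice, the 6 of reporter MG, the 12 of reporter sdCAMs, or both cell types together for comparisons between them. Scripts were tested on simulated counts. Levels are plain CPM and fold changes are TMM-scaled. Shares of counts were compared with exact two-sided permutation tests. The mouse pairs libraries, since populations came from the same animal: over 36 pairs of libraries the correlation of deviations from group means ran from -0.024 to 0.167 (median 0.052).

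The members, the lists and the tests were chosen with earlier results of these data known. Named members were the 5 with the most counts, paralogs, stalk proteins, up to 2 higher and 2 lower per comparison with the smallest p, up to 3 against the majority, and the 3 most and 3 least constant in share. Others were named after their values were seen. Some members that this rule names are not reported here. Alternatives were DESeq2 1.42.0, its size factors, other filters, TMM factors without these families, a fold limit, the mouse as a block, the IEG mark, the exchange of 2 columns, wider member lists, and each library left out. Transcript lengths came from GENCODE M21 and start sites from RefSeq.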

Additional observations from a re-analysis of the deposited data

Results flagged for a closer look

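The LPS response differed between cell types of Ccr2-/- mice by the interaction test: 17 members passed, each with the smaller response in sdCAMs. Rps29 had a difference of -1.31 on the log2 scale and Rpl14 of -1.19. With the mouse as a replicate block 8 members passed, and with library totals alone 47.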

How the results depend on the processing

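Of 27 single-gene fold changes, 1 changed direction (Rps14 for LPS in tdT+ sdCAMs, 0.712 with 2 columns exchanged). Counted per gene and setting, a fold change kept its direction but no longer passed in 18 cases with a library left out. It did so in 8 cases among the other alternatives. It still passed in 162 and 154 cases. The exchange also gave 1 member in tdT+ sdCAMs, now higher, 21 in tdT- sdCAMs, 0 between them after LPS (0 with the block too), 1 for tdT+ sdCAMs against MG, and share differences of 0.917, 1.27 and -0.146. A log2 fold change over 1 left 35 members for LPS in WT MG, 33 in Ccr2-/- MG, 2 in Ccr2-/- sdCAMs and 6 for cell type in Ccr2-/- mice. DESeq2 passed 9 for LPS in WT sdCAMs, 6 in reporter MG, 15 in tdT+ sdCAMs (4 higher, 11 lower), 2 for the WT interaction, 22 for tdT+ and 2 for tdT- sdCAMs against MG. In the first 4 of these it passed 15.8, 7.86, 20.7 and 6.62% of all genes. Where no share of all genes stands beside a count in this section, that count is not set against genes in general. Without a low-count filter 22 passed for LPS in WT sdCAMs and 5 for the WT interaction. With the mouse as a replicate block 8 passed for the Ccr2-/- interaction, and no other count moved by over 1.5 times (64 of 67 for cell type in WT mice, 42 of 50 in Ccr2-/- mice). The mark as a covariate gave 13 for LPS in WT sdCAMs and 37 for cell type in WT mice, and marked libraries alone gave 23. Library totals alone, added after the data were seen, gave 6 for the WT interaction, all lower, and 47 for the Ccr2-/- one, and moved the median of all genes most for LPS in WT sdCAMs (-1.55) and the WT interaction (-1.70). Without WT sdCAM and tdT- LPS libraries, a setting also added after the data were seen, the share difference between cell types after LPS was -0.0753. Leaving out 1 library gave 0 to 2 members for LPS in WT sdCAMs, 2 to 8 in tdT+ sdCAMs, 40 to 69 and 29 to 49 for cell type in WT and Ccr2-/- mice, 1 to 13 for tdT+ sdCAMs against MG, 9 to 23 for the Ccr2-/- interaction, 0 to 55 for BLZ945 in WT sdCAMs, 30 to 65 for the mark, and 0.3003 to 0.782 for the share after LPS in sdCAMs. The causes were not tested. With 3 libraries a group a comparison cannot give an exact p below 0.1.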

Other observations

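Of 78 measured ribosomal proteins of the mitochondria, which are encoded by nuclear genes, 15 were higher and 1 lower after LPS in WT MG (median log2 fold change 0.31), beside 16.7 and 14.2% of all genes. In Ccr2-/- MG 39 were higher (median 0.56), beside 19.4%, and in Ccr2-/- sdCAMs 15 were higher and 1 lower (median 0.35), beside 15.8 and 13.1%. Their difference from the cytosolic ribosomal proteins was not tested.

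Of 6 cytosolic ribosomal proteins whose symbols fall outside the naming rule, 4 rose after LPS in WT MG (median 1.10) and 5 in Ccr2-/- MG (median 1.32), among them Rpsa, a small subunit protein (log2 fold change 1.71, SE 0.26, and 1.75, SE 0.21), and Rack1, a signalling scaffold on the small subunit (1.54, SE 0.27, and 1.82, SE 0.17). In Ccr2-/- sdCAMs Rack1 rose (0.91, SE 0.20).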
